A study of Mus musculus with 6 samples.

Results

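1110038B12Rik and 2410006H16Rik are mouse long noncoding RNA genes that GENCODE M21 tags as hosts of smaller noncoding RNAs. One transcript of each was taken by identifier from the deposited lncRNA table, ENSMUST00000172501 (1110038B12Rik-201) and ENSMUST00000131787 (2410006H16Rik-201), which makes 2 of its 30924 transcripts. Both were chosen by measured values, their high FPKM and their lower level after Mettl3 siRNA in these libraries, so those values describe the transcripts and are given without a test. RNA was sequenced from GC-1spg cells, an immortalised mouse spermatogonial line, in 3 libraries that received a control siRNA (si-NC) and 3 that received an siRNA against Mettl3 (si-METTL3). METTL3 is the catalytic subunit of the enzyme that writes N6-methyladenosine (m6A) into RNA. The cells of all 6 libraries were grown in DMEM with 10% FBS, transfected at 60% density and collected 48 h later. The labels tag the si-NC libraries as untreated and print 1 sequence for both siRNAs, so the control sequence is not known, and no library was of untransfected cells. Whether the 3 replicates of a group were separate cultures is not stated, so p-values measure the spread between these libraries, which may be technical.

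Small nucleolar RNAs (snoRNAs) of the box C/D class guide 2′-O-methylation of ribosomal RNA. In mammals nearly all of them are cut out of the introns of host transcripts. The spliced exons that remain are, in many hosts, a noncoding RNA that reaches the cytoplasm and is short-lived, and many hosts start with a C followed by a run of pyrimidines, as do mRNAs of the translation machinery.

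1110038B12Rik lies on the minus strand of chromosome 17, and its measured transcript runs from 34952468 to 34950243 (GRCm38) in 5 exons with a spliced length of 579 nt. 2410006H16Rik lies on the plus strand of chromosome 11, from 62602877 to 62604807, also in 5 exons, with a spliced length of 462 nt. GENCODE places 5 snoRNA genes in the introns of these transcripts, 2 in 1110038B12Rik and 3 in 2410006H16Rik. Each ends 68 to 104 nt before the 3′ end of its intron. Their sequences are shown because they are the part of each primary transcript that the spliced RNA counted here no longer holds. They were matched by name in the GENCODE transcript file, with the box C core TGATGA and the last CTGA, the box D core, in capitals. All 5 held both in that order, as did 222 of the 283 GENCODE snoRNA transcripts of 60 to 80 nt (78.4%), searched on the sense strand.
Snord52, intron 3 of 1110038B12Rik, chr17:34950952-34951017, minus strand: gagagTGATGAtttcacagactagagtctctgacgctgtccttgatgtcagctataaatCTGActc
Gm25744, intron 2 of 1110038B12Rik, chr17:34952013-34952075, minus strand: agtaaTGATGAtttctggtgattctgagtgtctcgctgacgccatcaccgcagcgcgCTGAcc
Snord49b, intron 1 of 2410006H16Rik, chr11:62603079-62603150, plus strand: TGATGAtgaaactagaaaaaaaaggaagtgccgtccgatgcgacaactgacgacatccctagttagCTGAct
Snord49a, intron 2 of 2410006H16Rik, chr11:62603450-62603521, plus strand: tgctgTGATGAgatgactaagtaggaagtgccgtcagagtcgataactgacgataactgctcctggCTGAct
Snord65, intron 4 of 2410006H16Rik, chr11:62604515-62604586, plus strand: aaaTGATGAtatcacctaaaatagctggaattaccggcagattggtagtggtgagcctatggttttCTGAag
Levels of the snoRNAs themselves were not analysed here.

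**Figure D1:**
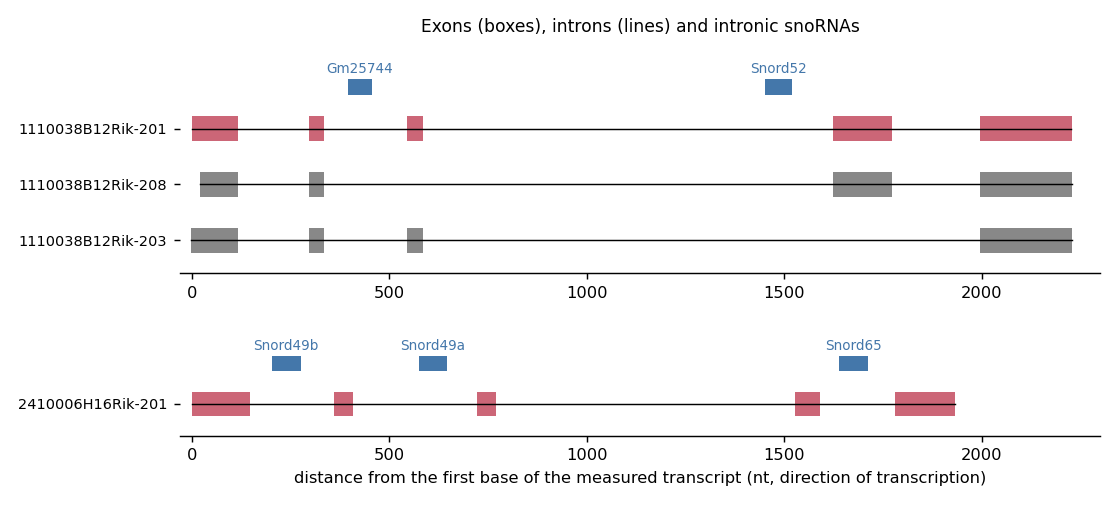
Exons (boxes) and introns (lines) of the transcripts of both genes that are listed in the lncRNA table, against the distance in nt from the first base of the measured transcript, with snoRNA genes as blue boxes. The measured transcripts are in red, and all 5 snoRNAs fall inside introns, with exon 4 of 1110038B12Rik-201 missing from 1110038B12Rik-203.

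The start sites were read from the RefSeq promoter table (GRCm38.p6) because both transcripts were lower in the same libraries. Each window holds 40 bases before the start site and 20 bases from it, with the unbroken run of pyrimidines that begins at the first transcribed base in capitals. RefSeq lists a further start of 1110038B12Rik 3 bases upstream, which begins with G.
1110038B12Rik, chr17:34952449-34952508, minus strand: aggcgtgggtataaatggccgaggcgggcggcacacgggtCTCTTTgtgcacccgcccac
2410006H16Rik, chr11:62602837-62602896, plus strand: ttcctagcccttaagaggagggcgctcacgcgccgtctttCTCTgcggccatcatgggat
Both transcripts began with C, followed by pyrimidines for a run of 6 bases in 1110038B12Rik and 4 in 2410006H16Rik. A C followed by at least 3 pyrimidines began 1236 of the 32851 RefSeq start sites in the table (3.76%). Of the 18 listed other snoRNA hosts with a start site in the table, 3 had such a start. The letters TATAAA stood within the 21 to 40 bases before the 1110038B12Rik start and not in the same window of 2410006H16Rik, on the strand shown, against 1.87% of all listed start sites.

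GGACT, the commonest form of the motif at which METTL3 methylates RNA, was searched in the spliced transcripts on the sense strand, with its letters in capitals and positions counted from the first base of the transcript.
1110038B12Rik, position 77, exon 1: gggtctgaGGACTccggagag
1110038B12Rik, position 209, exon 4: agctctgaGGACTtcacaggg
2410006H16Rik, position 279, exon 4: cggacgcaGGACTgcagatct
Of 8039 transcripts in the table within 20% of the length of 1110038B12Rik-201, 51.3% held the motif at least once and 16.4% at least 2 times. Of 6875 near the length of 2410006H16Rik, 44.5% held it. A match does not show that a site is methylated, and m6A was not measured.

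Both transcripts were among the most abundant noncoding RNAs of these cells, and both were 2.4 to 2.9 times lower in si-METTL3 on the FPKM scale. FPKM, a fragment count scaled for transcript length and depth, was used as deposited, and both tables share 1 library total, so levels can be set side by side. 2410006H16Rik stood at 876, 805 and 966 FPKM in si-NC and at 382, 379.5 and 352 FPKM in si-METTL3. The lowest si-NC library was above the highest si-METTL3 library by more than the range of either group. 1110038B12Rik-201 stood at 433, 403 and 455 FPKM in si-NC and at 156, 148 and 148 FPKM in si-METTL3. Here too the groups did not overlap, and the 3 si-METTL3 libraries were nearly level. How many of all transcripts lack overlap was not counted, here or below. An exact test of 3 libraries against 3 cannot give a p below 0.1.

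The means were 882 ± 80.4 and 371 ± 16.6 FPKM for 2410006H16Rik (SD, n = 3), in si-NC and si-METTL3, and 430.2 ± 25.8 and 151 ± 4.85 FPKM for 1110038B12Rik-201. For 2410006H16Rik they rest on 17415, 13514 and 20264 counts in the controls, and on 6730, 4755 and 4913 after Mettl3 siRNA. For 1110038B12Rik-201 the controls had 10782, 8482 and 11957 counts, and the Mettl3 siRNA libraries 3446, 2322 and 2584. Counting error was not set against the spread between libraries. That spread was smallest for 1110038B12Rik-201 in si-METTL3, where the SD of FPKM was 3.22% of the mean.

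**Figure D2:**
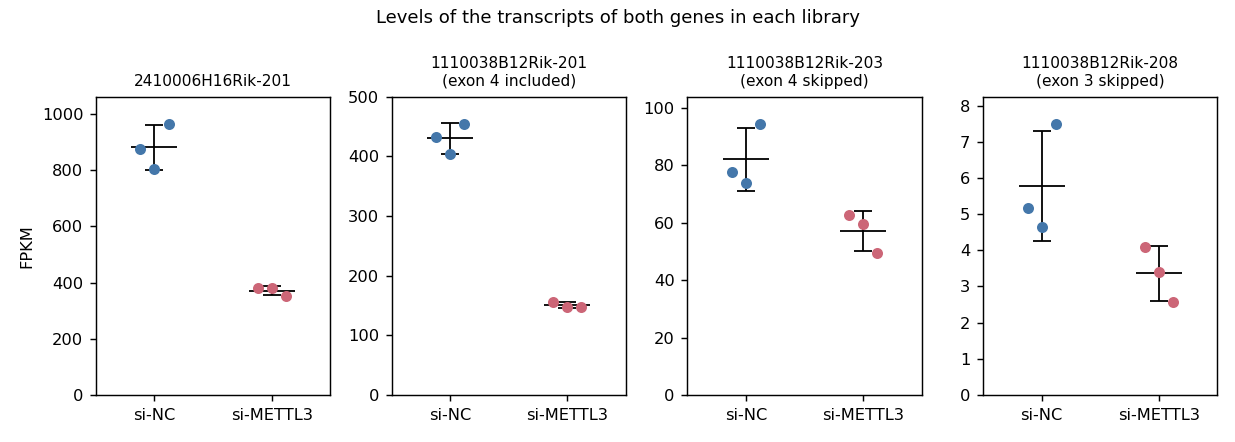
FPKM of the 4 listed transcripts of both genes in each library (points), with the mean and SD of each group (black), on axes that start at 0. 2410006H16Rik and 1110038B12Rik-201 lie far lower in all 3 si-METTL3 libraries, while the gap between groups is small for 1110038B12Rik-203 and 1110038B12Rik-208.

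Fitted to the counts with edgeR, scaled within the lncRNA table, the log2 fold change of si-METTL3 over si-NC was -1.62 (SE 0.16) for 1110038B12Rik-201, or 3.07-fold lower. It was -1.35 (SE 0.17) for 2410006H16Rik, or 2.56-fold lower. The authors' deposited table gives log2 ratios of mean FPKM of -1.51 and -1.25. The median over all 5728 transcripts tested was 0.01. At an adjusted p under 0.05 the fit called 42 of them (0.733%), 33 of which were lower in si-METTL3 (0.576%), both of these transcripts included. With a correction for length and GC content 37 of 54 calls were lower. That contrast chose them, so nothing is read from the call, which with 1 library omitted was made without si-NC replicate 2 and in none of the other 5 cases. With each library omitted in turn the log2 fold changes ran from -1.73 to -1.49 and from -1.49 to -1.19.

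In rank, 2410006H16Rik was 7 and 1110038B12Rik-201 was 12 of 30924 by mean FPKM in si-NC, and they were 13 and 31 after Mettl3 siRNA. Among 14611 transcripts of annotated genes that are neither protein-coding nor pseudogenes they were 2 and 3 in si-NC, after Rmrp, the RNA of the RNase MRP complex. In si-METTL3 they were 4 and 7. These are ranks of single transcripts, and Malat1 was divided over 3 of the leading ones, at 378, 312 and 243 FPKM in si-NC. Assembled transcripts without an annotated gene were left out of this ranking, among them MSTRG.3770.1 at 40680 FPKM in si-NC. Set against the mRNA table, 59 of 22298 genes had a higher mean FPKM than 2410006H16Rik in si-NC and 132 in si-METTL3. For 1110038B12Rik-201 those numbers were 129 and 402.

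The transcripts of 1110038B12Rik were not lower by the same amount. Of 8 annotated, 3 are listed in the lncRNA table. 1110038B12Rik-203 (ENSMUST00000173070) lacks the 150 nt exon 4, which holds the GGACT at position 209, and stood at 77.8, 74.0 and 94.5 FPKM in si-NC and at 62.7, 59.6 and 49.4 FPKM in si-METTL3. Its groups did not overlap either, but by a narrow margin. Its log2 fold change was -0.63 (SE 0.21, edgeR adjusted p = 0.227), which did not pass the threshold. 1110038B12Rik-208 (ENSMUST00000174714), which lacks the 41 nt exon 3, was scarce, at 5.77 ± 1.52 FPKM in si-NC and 3.36 ± 0.761 FPKM in si-METTL3 (SD, n = 3). At -0.89 on the log2 scale (SE 0.34, adjusted p = 0.274 in edgeR) it did not pass either.

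As a share of the summed FPKM of the 3 transcripts, the exon 4 skipping form made up 15.1%, 15.4% and 16.98% in the control libraries, against 28.1%, 28.3% and 24.7% with Mettl3 siRNA. The group means were 15.8% ± 1.02 and 27.0% ± 2.00 (SD, n = 3), and all si-METTL3 libraries lay above all si-NC libraries. The share of 1110038B12Rik-201 was 83.1% ± 1.23 in si-NC and 71.4% ± 2.25 in si-METTL3. These shares depend on how the counting divided reads, since 429 of the 434 bases of 1110038B12Rik-203 are also in 1110038B12Rik-201. The summed counts of the 3 transcripts do not depend on how reads were divided among these 3. The other annotated transcripts, all with a retained intron, are outside this sum, and whether reads were assigned to them is not known. The summed counts were 12350, 9738 and 13998 in the control libraries and 4564, 3071 and 3271 with Mettl3 siRNA, and their fitted log2 fold change was -1.44 (SE 0.16). The summed FPKM, 518 ± 37.5 in si-NC and 211 ± 11.6 in si-METTL3, does depend on the division among the 3, since each count is divided by the length of its own transcript. In the fit of sums by gene 1.15% of 4611 genes were called and 0.846% were called lower. 2410006H16Rik has 1 annotated transcript.

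2410006H16Rik kept a higher level than 1110038B12Rik-201 in every library, and the ratio of their FPKM differed between the groups. The control libraries had ratios of 2.02, 2.00 and 2.12, and those with Mettl3 siRNA 2.45, 2.57 and 2.38. The means were 2.05 ± 0.0669 and 2.47 ± 0.0931 (SD, n = 3), with no overlap. Over the 6 libraries the log2 levels of the pair had a Pearson r of 0.997, a description of points that share the group difference.

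**Figure D3:**
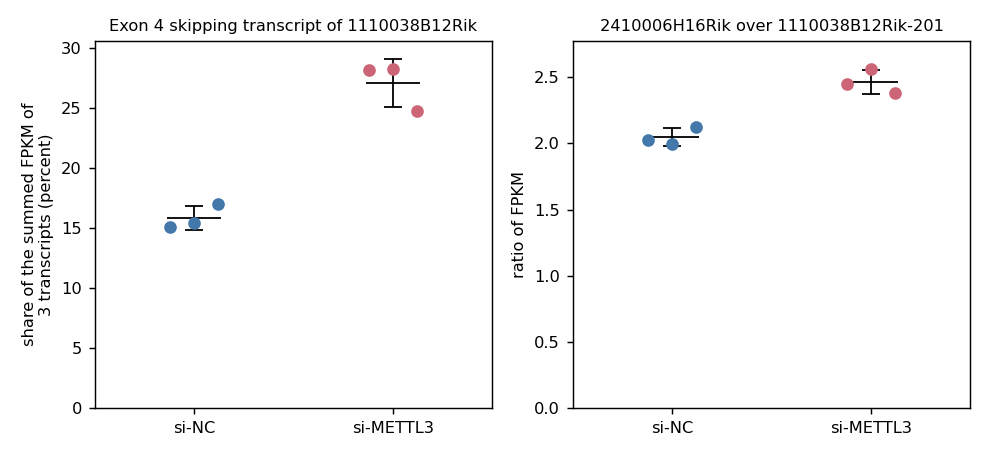
Left, the FPKM of the exon 4 skipping transcript 1110038B12Rik-203 as a percentage of the summed FPKM of the 3 listed 1110038B12Rik transcripts; right, the ratio of 2410006H16Rik to 1110038B12Rik-201 in FPKM. Points are libraries, black marks the mean and SD, and in both panels the 3 si-METTL3 libraries lie above the 3 si-NC libraries.

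Transcripts of 6 other noncoding snoRNA hosts fell in the same libraries, while most tested host transcripts did not pass the threshold. Of 21 listed host genes, 16 had transcripts with enough counts to be tested, 44 in all, and in edgeR 6 of these transcripts fell and none rose, against 0.576% and 0.157% of all tested transcripts. At an unadjusted p under 0.05 the numbers were 21 and 0, and DESeq2 called 15 and 0. Over all 5728 tested transcripts 883 had an unadjusted p under 0.05 in either direction, and DESeq2 called 153 lower and 104 higher. The median log2 fold change of the 44 host transcripts was -0.56, with 37 of 44 below 0. The 7 above 0 included the tested transcripts of Snhg6 (0.01) and Snhg18 (0.06). Snhg12, a host of H/ACA and C/D snoRNAs, fell from 69.5 ± 9.004 to 20.4 ± 1.37 FPKM (log2 fold change -1.87, SE 0.21, edgeR adjusted p = 0.0181). Snhg15 fell from 113 ± 10.2 to 38.8 ± 4.26 FPKM (-1.64, edgeR adjusted p = 0.0242), and Zfas1, host of the Snord12 family, from 205 ± 20.1 to 70.9 ± 6.15 FPKM (-1.64, edgeR adjusted p = 0.0241). Snhg1, host of U22 and related snoRNAs, fell from 388 ± 16.1 to 135 ± 4.16 FPKM (-1.62, edgeR adjusted p = 0.00913). Transcripts of Snhg17 (-1.15) and of Gas5 (-0.93) were the other calls. The 6 calls became 7 without si-NC replicate 2 and 0 without any other single library, while 36 to 40 of the 44 values stayed below 0.

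By level, 2410006H16Rik and 1110038B12Rik-201 ranked 1 and 2 among the 46 host transcripts, ahead of Snhg1. The si-NC means of 1110038B12Rik-201 (430.2 FPKM) and Snhg1 (388 FPKM) are apart by about the sum of their SDs. Snhg3 (143 FPKM in si-NC, log2 fold change -0.75, edgeR adjusted p = 0.153) lay above Snhg15 in level and did not pass. Of 27 tested transcripts of 10 other well-known lncRNA genes none passed in edgeR, 3 were higher and 0 lower at an unadjusted p under 0.05, DESeq2 called 1 higher, and their median log2 fold change was 0.20. Among these, the 3 abundant transcripts of Malat1, a nuclear RNA of splicing speckles, had log2 fold changes of 0.24, 0.25 and 0.46.

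**Figure D4:**
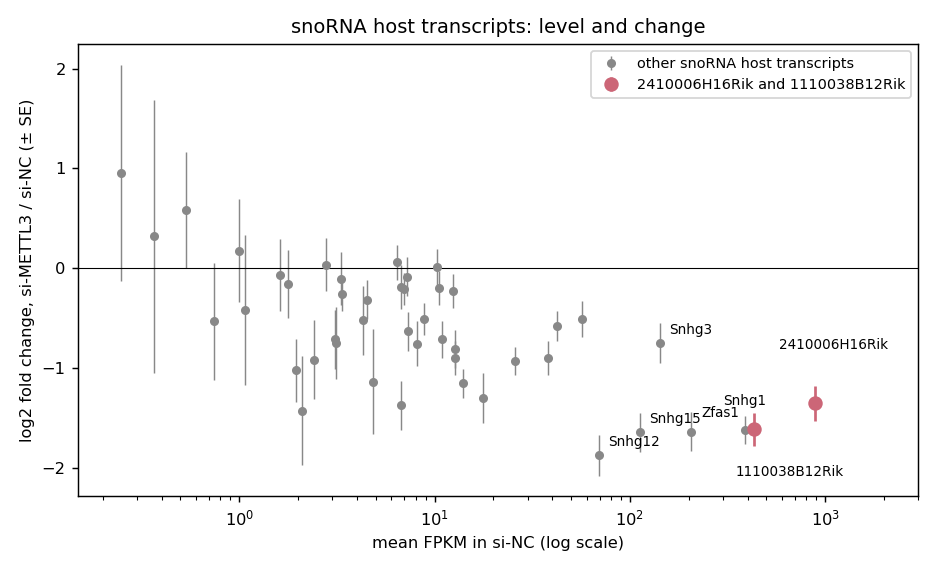
Log2 fold change (si-METTL3 over si-NC, with SE) of 46 noncoding snoRNA host transcripts against their mean FPKM in si-NC on a log axis. 2410006H16Rik and 1110038B12Rik-201 (red) have the highest levels, and Snhg1, Zfas1, Snhg15 and Snhg12 have log2 fold changes between -1.87 and -1.62.

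Genes near either locus had log2 fold changes nearer to 0 than the host transcripts. Within 100000 bp, 12 of the 18 mRNA-table genes near 1110038B12Rik were tested, and 1 fell and none rose (10.2% and 8.67% of all 13082 tested mRNA genes fell and rose). DESeq2 called none of the 12, and at an unadjusted p under 0.05 there were 2 lower and 1 higher. DESeq2 called 2651 of all 13082 tested mRNA genes in either direction, and a share of them at an unadjusted p under 0.05 is not given. The median log2 fold change of the 12 neighbours was -0.09. The complement gene C2, 51973 bp away, fell by 0.50 on the log2 scale (edgeR adjusted p = 0.0401). The nearest tested gene, the heat shock gene Hspa1b 3965 bp away, had 7 to 25 counts per library (0.38, SE 0.51). The others were the sialidase gene Neu1 (0.31), the RNA-binding protein gene Lsm2 (-0.22), the histone methyltransferase gene Ehmt2 (0.01), the valyl-tRNA synthetase gene Vars (-0.09), Zbtb12 (0.30), Vwa7 (-0.22), Msh5 (-0.10), the complement factor B gene Cfb (-0.59), Nelfe (-0.06) and Clic1 (-0.10).

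Near 2410006H16Rik, 6 of 7 genes were tested, 2 fell and none rose in edgeR, in DESeq2 and at an unadjusted p under 0.05, with a median of -0.25. Of all 13082 tested mRNA genes 10.2% fell and 8.67% rose in edgeR. DESeq2 called 2651 of them in either direction, and a share at an unadjusted p is not given. Lrrc75a, on the opposite strand with its 3′ end 77 bp beyond that of 2410006H16Rik, had a log2 fold change of 0.15 (SE 0.19) at 3.36 ± 0.553 CPM in si-NC, where CPM is a count scaled to the mRNA-table library size. Whether strand was used in counting is not given, and the annotated exons of this pair do not overlap. Mmgt2, which encodes a membrane magnesium transporter, fell by 0.45 (edgeR adjusted p = 0.0337). Pigl, an enzyme of GPI anchor synthesis, fell by 0.51 (edgeR adjusted p = 0.0202). The ubiquitin gene Ubb (-0.22), Cenpv (-0.28) and Zfp287 (0.34) did not pass. When libraries were omitted singly, C2 and Mmgt2 stayed called in 1 case of 6 and Pigl in 3.

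**Figure D5:**
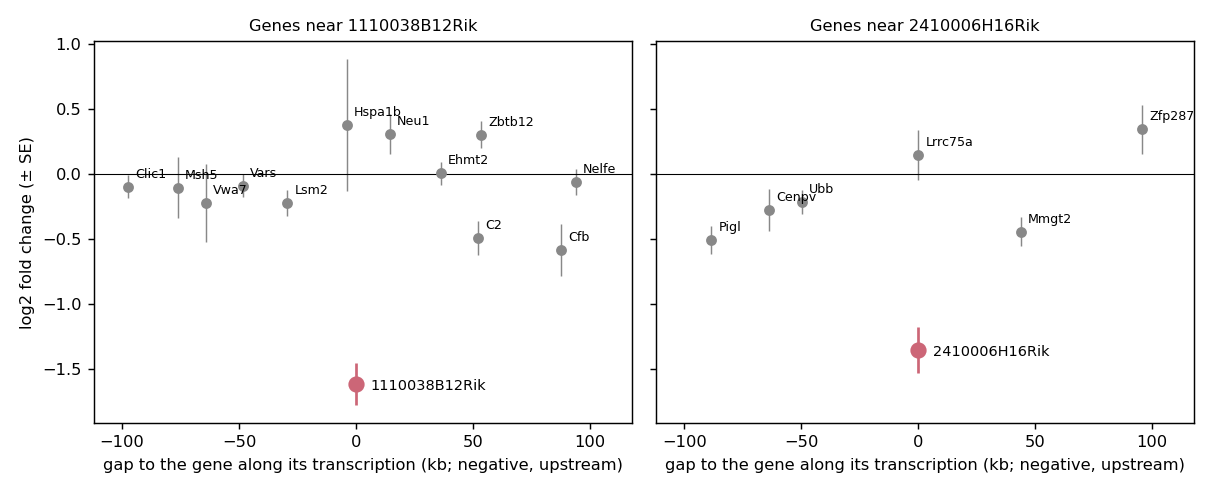
Log2 fold change with SE of tested mRNA-table genes (grey) against the gap in kb to 1110038B12Rik (left) or 2410006H16Rik (right), negative values being upstream. The host transcripts (red) were fitted in the lncRNA table and the neighbours in the mRNA table. All neighbours lie between -0.59 and 0.38, above the red points.

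Protein-coding genes of related function were also examined, and their called members had smaller log2 fold changes than the host pair. Of 19 mRNAs with a pyrimidine start that encode no classical ribosomal protein, 6 fell and none rose in edgeR (10.2% of tested mRNA genes fell), 10 were lower and 1 higher at an unadjusted p under 0.05, and DESeq2 called 8 lower and 0 higher. Over all 13082 tested mRNA genes DESeq2 called 2651 in either direction, and a share at an unadjusted p under 0.05 is not given. The median log2 fold change of the 19 was -0.25. The ubiquitin-like fusion gene Fau, whose product does carry ribosomal protein S30, fell by 0.66 (edgeR adjusted p = 0.0155), the nascent chain factor gene Naca by 0.48 (edgeR adjusted p = 0.0055), and the elongation factor subunits Eef1g by 0.46 and Eef1d by 0.39. With libraries omitted singly these 4 calls remained in 3, 6, 2 and 3 cases of 6.

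Of 12 genes for box C/D snoRNP proteins and their assembly factors, 6 fell and none rose in edgeR and in DESeq2 alike, with a median of -0.29 and with 8 lower and 0 higher at an unadjusted p under 0.05. The assembly factor genes Znhit6 (-0.63), Ruvbl1 (-0.40) and Znhit3 (-0.38) and the core protein gene Snu13 (-0.41) led them, each below 0.05 in edgeR adjusted p, and these calls remained in 3, 1, 1 and 1 cases of 6. Of 15 genes for nonsense-mediated decay, a pathway known to degrade many spliced snoRNA host transcripts, 4 fell and none rose in edgeR (median -0.18), 7 and 0 at an unadjusted p under 0.05, and 5 and 0 in DESeq2. Eif4a3 (-0.68) and Rbm8a (-0.66), both of the exon junction complex, Smg9 (-0.45) and Casc3 (-0.30) were the calls, and they remained in 6, 5, 1 and 2 cases of 6. For both lists, 10.2% of all 13082 tested mRNA genes fell and 8.67% rose in edgeR, and DESeq2 called 2651 in either direction. A share of all genes at an unadjusted p under 0.05 is not given here.

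The rows most like each transcript were found by Pearson r of log2 levels over the 6 libraries, with counts scaled for depth within each table. These 6 points hold the group difference. Among lncRNA-table transcripts with a gene symbol, with the transcripts of both genes left out of the ranking, the leading 3 were the same for both, Snhg12 (r = 0.999 with each), Zfas1 (0.998 with each) and Snhg15 (0.997 with 1110038B12Rik-201, 0.996 with 2410006H16Rik). The r of 0.997 between the pair itself lies above that of Snhg15 with 2410006H16Rik. Among 8984 mRNA-table genes the nearest to 1110038B12Rik-201 were Pdrg1 (log2 fold change -0.96), the matricellular protein gene Ccn1 (-0.83), Bloc1s2 (-0.72) and Trim26 (-0.68), each at an r of at least 0.999. Those nearest to 2410006H16Rik were Chchd5 (-0.63), Prmt6 (-0.64), Ngdn (-0.71) and the mitochondrial ribosomal protein gene Mrpl49 (-0.53), also at r of 0.999. All 8 of these mRNA genes were called lower, by less than the pair itself, where 10.2% of all tested mRNA genes were called lower. They were ranked by likeness to transcripts chosen for being lower, so nothing is read from these calls. With this many rows and 6 libraries, r values this close to 1 are a description only.

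The libraries held 1982088 to 3111037 counts in the lncRNA table and 22146057 to 37698956 in the mRNA table. Counts of Mettl3 itself were 606, 578 and 683 in the controls against 142, 134 and 136 after its siRNA (log2 fold change -1.79, SE 0.14, edgeR adjusted p = 0.000579). Of 17 germ line and spermatogonial markers, Nanos2, Sall4 and Sohlh1 were at 0 in all libraries, Dazl had at most 1 count and Ddx4 at most 7, while Uchl1 was at 38.2 CPM in si-NC, so several defining germ cell markers were absent or nearly so. Of the 8 with enough counts to be tested, Gfra1 rose by 0.65 and Piwil2 fell by 0.74 on the log2 scale (edgeR adjusted p = 0.0389 and 0.0173), where 18.9% of all tested mRNA genes were called. Gfra1 did not pass in DESeq2 (adjusted p = 0.0661) or with no filter in edgeR (adjusted p = 0.0547), and with libraries omitted singly it stayed called in 1 case of 6 and Piwil2 in 3. The summed level of 17 lung markers, all with counts, was 12.2 CPM in the first and 10.5 CPM in the second si-NC replicate, 88.7 CPM in si-NC replicate 3, and 87.8 to 129 CPM in si-METTL3. The 5 blood markers (0.456 and 0.796 against 12.1 and then 12.4 to 18.8 CPM) and the 12 macrophage and endothelial markers (26.3 and 26.8 against 35.8 and then 36.2 to 41.5 CPM) divided the libraries the same way. For 1110038B12Rik-201 and 2410006H16Rik, si-NC replicate 3 had the highest FPKM of both. Without that library their log2 fold changes were -1.49 and -1.19, nearer to 0 than the -1.62 and -1.35 with all libraries. The median of the 44 host transcripts was then -0.48. No transcript of the lncRNA table was called in edgeR without si-NC replicate 3, with 692 at an unadjusted p under 0.05. The part of what these markers show in the calls, or in the change of the pair, was not tested.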

How the data were processed

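The authors deposited counts and FPKM per library for an mRNA table of genes and a lncRNA table of transcripts, with their mean FPKM, log2 fold change, p-values and adjusted p-values (q-values), per the file headers. No source used here names their test. Tools listed by the submitters' processing notes are Bowtie2, RSEM, StringTie and fastp, and the build is mm9; versions and roles are missing there. All deposited counts were whole numbers. No coordinate was converted: names and positions come from GENCODE M21 (GRCm38), which held 29627 of 30924 lncRNA identifiers, and start windows from RefSeq (GRCm38.p6).

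Counts were fitted here per table with edgeR 4.0.16 in R 4.3.3 (TMM, filterByExpr, quasi-likelihood, group as the single term), with Benjamini-Hochberg adjustment over all tested rows and a threshold of 0.05. SE is the log2 fold change over the square root of F. The lncRNA table listed 1 assembled transcript with 22.9% to 35.3% of its counts. The fits were tested on simulated data. Named genes were both transcripts, the other transcripts of their genes, all tested mRNA-table genes within 100000 bp, the called entries of each list (at most 4 in each direction, by size), and for each transcript the 4 named mRNA genes and 3 lncRNA transcripts of highest r with a mean of at least 10 CPM. Gas5, Snhg17, Snhg3, Snhg6, Snhg18, Malat1, Rmrp and Uchl1, the markers at or near 0, and the hosts in the closing section were named after their values were seen. The pair and the lists were chosen with earlier results of these data known. The replicate numbers were not used as pairs in the main fit. Deviations of same-numbered libraries from their group means had correlations of 0.05, 0.03 and -0.06 in the lncRNA table. In the mRNA table these were 0.07, 0.20 and -0.31. With 3 libraries per group such values cannot show whether the libraries were paired.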

Additional observations from a re-analysis of the deposited data

How the results depend on the processing

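The log2 fold changes of 1110038B12Rik-201, of its gene sum and of 2410006H16Rik kept their sign and moved by less than 1 SD between replicates under all alternatives run: other scalings, no filter, DESeq2 1.42.0, limma-voom and limma on log2(FPKM + 1) or log2(FPKM + 0.1) (limma 3.58.1), the replicate block, the length and GC correction and each left-out library. They came nearest to 0 with the length and GC correction and the replicate block for 2410006H16Rik (-1.14), and the gene sum ranged from -1.56 to -1.28 over left-out libraries. Counts of calls depended on the method. The 42 lncRNA calls became 150 with no filter, 257 with DESeq2, and 108 or 102 on FPKM with a pseudocount of 1 or 0.1. They became 0 with the replicate block, with or without the length and GC correction, where 789 and 840 transcripts had an unadjusted p under 0.05, and 0 to 77 when 1 library was left out. Listed host calls, 6 lower, became 10, 15, 11 and 12 under the first 4 of these, 0 in both block fits and 0 to 7 without 1 library. The 2468 mRNA calls became 1273 with the replicate block and 665 to 4917 without 1 library. Over left-out libraries Ehmt2 ranged from -0.0734 to 0.0356 and Hspa1b from -0.0137 to 0.829. Ehmt2 changed sign with no filter (-0.00426), without si-NC replicate 2 (-0.0734) and without si-METTL3 replicate 1 (-0.0514), and Hspa1b without si-METTL3 replicate 1 (-0.0137). The cause was not tested.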

Other observations

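In 1110038B12Rik the most abundant transcript had the lowest log2 fold change, and the same ordering was looked for in the other noncoding snoRNA hosts after the values were seen. Of 11 listed host genes with at least 2 tested transcripts, the transcript with the highest mean FPKM over all 6 libraries had a lower log2 fold change than every other tested transcript of its gene in 7, and lay below the median of the others in 9. These genes had 2 to 7 tested transcripts each. How often the same ordering occurs among all genes of the lncRNA table was not counted, so nothing is read from these numbers. In Snhg12 the values were -1.87 for the most abundant transcript and -0.24 for the median of the others, in Snhg15 -1.64 and -0.64, and in Snhg1 -1.62 and -0.53. The other 4 of the 7 were Snhg3 (-0.75 and -0.36), Snhg20 (-0.59 and -0.25), Snhg8 (-0.51 and 0.17) and Snhg14. In Snhg14 the most abundant transcript was not lower in si-METTL3 (0.03, SE 0.27), and the other, at 0.247 FPKM in si-NC, had a log2 fold change of 0.95 (SE 1.09). Gas5 (-0.93 and -0.77) and Snhg17 (-1.15 and -0.90) lay below the median of the others but not below every one. Snhg5 went the other way, at -0.90 and -1.22, as did Dancr by a small margin (-0.23 and -0.26). Reads shared between transcripts of 1 gene may have been split by the counting, and no test was run.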
